A study of Mus musculus with 4 samples.

Results

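Usp6nl and Fras1 are 2 of the 55450 genes of the GENCODE vM21 mouse annotation, and were chosen by a measured value, the gain of signal that a wide stretch of chromatin at each showed 48 h after partial hepatectomy (PHx). The members are the peaks over each gene and the 20 kb on either side, called the window of that gene here. Usp6nl (ENSMUSG00000039046.15) lies on the plus strand of chromosome 2 from 6322667 to 6446390 (mm10), and Fras1 (ENSMUSG00000034687.8) on the plus strand of chromosome 5 from 96373955 to 96784728. Peaks of different libraries that touched were merged into 1 region. The Usp6nl window held 52 of the 200890 regions of the series and the Fras1 window 49. Of these, 14 and 19 had a peak in every library, and 11 and 13 of those also had a mean of at least 5 CPM, the counts of a library scaled to a fixed total.

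The study used single-nucleus ATAC-Seq (scATAC-Seq), in which the Tn5 transposase cuts open DNA and a droplet barcode marks the nucleus, to follow how hepatocyte chromatin changes as the liver regrows. The 4 libraries held hepatocytes of an undamaged liver (PHx 0 h) or of a liver 48, 72 or 96 h after PHx, the surgical removal of most of the organ, with 1 library per time point. The mice were 10 to 12 weeks old by the labels and on a normal diet, male C57BL/6J by the methods of the study, and all hepatocytes were freed by collagenase perfusion. The sources used here do not say whether several mice went into the 72 and 96 h libraries. There is no replicate error and no test was made, and time after PHx, mouse and library cannot be told apart. Intervals on CPM are exact 95% Poisson and those on shares exact 95% binomial intervals. Intervals on log2 differences are normal approximations from the fragments counted. Those on ratios of nuclei open at both of a pair are binomial limits of that joint share over a product held fixed. All cover counting error only, as reads of a library are not independent animals.

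Usp6nl, also called RN-tre, is a GTPase-activating protein for Rab5, the small GTPase of early endosomes, and it binds Eps8, an adaptor of the epidermal growth factor receptor (Egfr), so that it is known for slowing the uptake of that receptor. Fras1 is a very large matrix protein of the basement membrane under epithelia. It works in a complex with Frem1, Frem2 and Frem3, is brought to the cell surface by Grip1, and is lost in Fraser syndrome. Hepatocytes lack a classical basement membrane, and their growth after PHx draws on Egfr signalling.

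Each later library was shallower than the one before, which bears on every value here. Barcodes with at least 1000 counts, called nuclei here, numbered 3977, 3892, 4256 and 3224 at 0, 48, 72 and 96 h, with 136582768, 62000846, 24724883 and 14935507 counts in peaks and medians of 26005, 11629, 4841 and 3682 counts per nucleus. Between 27 and 60 barcodes were shared by any pair of libraries. All 10 hepatocyte marker genes carried signal in every library, with a summed level of 3962 to 5820 CPM. Summed levels were 179 to 297 CPM for 8 endothelial genes, 110 to 240 CPM for 8 Kupffer and myeloid genes, 76.1 to 161 CPM for 8 stellate and mesenchymal genes and 46.6 to 70.1 CPM for 6 biliary genes. Of these 4 lists, 1, 4, 3 and 3 genes were at 0 at 0 h and again at 96 h, among them the Kupffer cell genes Clec4f and Marco. Nuclei with more counts on those 4 lists than on the hepatocyte list made up 4.07%, 3.29%, 6.02% and 1.43% of the libraries.

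In each window, the region with the highest ratio of 48 h over 0 h among those with a peak in every library is called the domain here. The Usp6nl domain, chr2:6444415-6455377 (mm10), started in the untranslated part of exon 15 of 15 of ENSMUST00000114937.7, and 82% of it, 8987 bp, lay past the gene end in GENCODE. RefSeq carries that last exon on to position 6448296. The Fras1 domain, chr5:96721120-96734527, lay inside the gene 347 kb from its start and spanned coding exons 48 to 52 of 74 of ENSMUST00000036019.4 with the introns between. At 0 h the called signal in both domains lay in several pieces. The Usp6nl domain then held 5 short pieces of 127 to 451 bp and the Fras1 domain 4 of 68 to 466 bp. All of these pieces lay inside the wide peaks of 48 and 72 h.

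The sequences below show the DNA at which Usp6nl starts and, for both genes, the small pieces that were already open at 0 h inside the later domains. They are given 5′ to 3′ on the plus strand from RefSeq (GRCm38.p6, the assembly of mm10). RefSeq promoters were found for Usp6nl, with 2 starts, of which the part before the first annotated exon is printed. Pieces of at least 200 bp outside untranslated exons are printed, whole or as their central 300 bases. Capitals mark matches, looked for on both strands, to any of 12 short motifs: AP-1 (TGANTCA), C/EBP (TTGCNNAA), FOX (TGTTTAC), HNF1 (GTTAAT), nuclear receptor (AGGTCA), STAT (TTCNNNGAA), TEAD (GGAATG), E-box (CACGTG), GC box (GGGCGG), the box spelled by its own name, CCAAT, YY1 (AAGATGGC) and ETS (CCGGAAG).
Usp6nl start 1 (chr2:6322507-6322666): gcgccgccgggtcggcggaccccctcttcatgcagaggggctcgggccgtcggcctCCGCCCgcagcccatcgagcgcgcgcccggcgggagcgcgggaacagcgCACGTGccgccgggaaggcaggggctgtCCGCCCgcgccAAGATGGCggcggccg
Usp6nl start 2 (chr2:6352486-6352732): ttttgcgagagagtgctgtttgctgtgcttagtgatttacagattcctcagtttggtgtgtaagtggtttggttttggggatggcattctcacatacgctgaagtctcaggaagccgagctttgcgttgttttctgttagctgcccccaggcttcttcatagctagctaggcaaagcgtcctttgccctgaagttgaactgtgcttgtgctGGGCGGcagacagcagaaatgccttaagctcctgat
Usp6nl piece 4 (chr2:6450918-6451217): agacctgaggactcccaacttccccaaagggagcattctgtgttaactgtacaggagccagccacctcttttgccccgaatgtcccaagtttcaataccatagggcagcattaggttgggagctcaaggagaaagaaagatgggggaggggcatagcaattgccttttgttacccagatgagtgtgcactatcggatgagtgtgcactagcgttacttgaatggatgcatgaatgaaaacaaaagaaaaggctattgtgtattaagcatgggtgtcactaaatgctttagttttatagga
Usp6nl piece 5 (chr2:6453250-6453460): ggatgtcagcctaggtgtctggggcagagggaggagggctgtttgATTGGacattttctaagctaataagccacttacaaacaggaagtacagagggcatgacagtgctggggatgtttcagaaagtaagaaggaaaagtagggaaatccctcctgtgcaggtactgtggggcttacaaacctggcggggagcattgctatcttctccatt
Fras1 piece 1 (chr5:96723723-96723980): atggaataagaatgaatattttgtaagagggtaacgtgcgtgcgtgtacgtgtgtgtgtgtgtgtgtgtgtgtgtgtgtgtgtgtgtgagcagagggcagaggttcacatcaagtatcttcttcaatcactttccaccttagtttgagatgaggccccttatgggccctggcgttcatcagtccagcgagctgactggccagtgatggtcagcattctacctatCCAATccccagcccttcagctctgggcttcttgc
Fras1 piece 2 (chr5:96726681-96726963): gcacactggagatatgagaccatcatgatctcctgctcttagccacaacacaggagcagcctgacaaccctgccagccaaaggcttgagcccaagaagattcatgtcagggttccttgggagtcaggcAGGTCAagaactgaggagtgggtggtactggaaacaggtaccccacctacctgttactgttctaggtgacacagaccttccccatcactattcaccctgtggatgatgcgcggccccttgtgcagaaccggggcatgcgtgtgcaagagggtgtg
Fras1 piece 3 (chr5:96728361-96728660): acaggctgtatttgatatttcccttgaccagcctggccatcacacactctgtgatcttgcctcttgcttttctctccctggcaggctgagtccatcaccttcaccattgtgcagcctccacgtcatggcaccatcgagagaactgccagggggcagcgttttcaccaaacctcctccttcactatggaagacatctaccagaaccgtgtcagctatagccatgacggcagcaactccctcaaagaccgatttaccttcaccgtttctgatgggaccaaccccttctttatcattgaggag

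The first start of Usp6nl had a GC content of 80.6%, above 98.9% of the same stretch of all promoters in the RefSeq table, and held 28 CpG pairs against a median of 3. It contained 2 GC boxes, 1 E-box and 1 YY1 motif. At least 1 match to these was found in 18.1%, 3.14% and 1.07% of those promoters. The second start had a GC content of 49.0% and 1 GC box, found in 32.4% of promoters over that length. The pieces inside the domains were plainer. Piece 4 of Usp6nl and piece 3 of Fras1 held none of the 12 motifs. A CCAAT box stood in piece 5 of Usp6nl and in piece 1 of Fras1, and windows of the same lengths at the centres of regions with a peak in every library held 1 in 24.3% and 28.8% of cases. Piece 2 of Fras1 held 1 nuclear receptor motif, present in 20.7% of such windows. No motif was shared by both Usp6nl pieces, and no matches overlapped each other. A match is a string of letters and not a bound site. Over the whole domains the GC content was 47.7% for Usp6nl and 44.7% for Fras1, against a median of 48.3% (quartiles 44.9% and 51.8%) over 4436 regions of at least 5 kb. Repeat-masked bases made up 11.0% and 19.7%, against a median of 17.8%.

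The Usp6nl domain carried 2.87 CPM (2.55–3.22) at 0 h, 35.2 (33.1–37.3) at 48 h, 50.6 (46.7–54.7) at 72 h and 1.21 (0.675–1.99) at 96 h. It was low at 0 and 96 h and high at 48 and 72 h. As the domain was chosen by its rise from 0 to 48 h, nothing is read from how far these levels lie apart. Called peaks covered 1345, 10553, 10963 and 141 bp of it, so the number of called bases moved with the signal. On the log2 scale with a pseudocount of 0.5 CPM the differences to 0 h were 3.40 (3.22–3.59), 3.92 (3.72–4.12) and -0.98 (-1.73 to -0.23) at 48, 72 and 96 h. From 48 to 96 h the log2 difference was -4.39 (-5.12 to -3.65).

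The Fras1 domain carried 2.29 CPM (2.0–2.61) at 0 h, 31.4 (29.5–33.4) at 48 h, 48.9 (45.1–53.0) at 72 h and 5.83 (4.43–7.51) at 96 h. It had the same order at 0, 48 and 72 h as the Usp6nl domain, but at 96 h it stayed above its level of 0 h, by an amount that depended on the scaling. Peaks covered 1075, 11811, 12876 and 852 bp. At 96 h these were pieces of 450, 322 and 80 bp over coding exons, and the longest enclosed piece 2 of 0 h. The log2 differences to 0 h were 3.51 (3.30–3.72), 4.15 (3.92–4.37) and 1.18 (0.77–1.59), and that of 96 h over 48 h was -2.33 (-2.71 to -1.95). Both domains were thus higher at 72 h than at 48 h, by 0.52 (0.38–0.66) and 0.63 (0.49–0.78).

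Values at 96 h depended on the scaling. An alternative, scaling to 1732 regions of near-equal peak length in all libraries, lowers every value by 0.18 at 72 h and 0.68 at 96 h on the log2 scale against 0 h and raises it by 0.05 at 48 h. It had been planned for the windows and was applied to single regions and genes after seeing the data. With it the Fras1 domain was at 0.56 at 96 h over 0 h, under 2-fold, and the Usp6nl domain at -1.43, past 2-fold lower. Both kept their direction at all 3 later times.

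The rises at 48 h chose the members and are given as a description, from which nothing is read. Of the 41337 autosomal regions with a peak in every library and a mean of at least 5 CPM, the Fras1 domain ranked 12th and the Usp6nl domain 16th by the ratio of 48 h over 0 h. Over all those regions the log2 ratios to 0 h had medians of -0.03, 0.01 and 0.16 in the order of the times. At 48 h, 3 of the 11 measured Usp6nl regions and 1 of the 13 measured Fras1 regions were at least 2-fold higher than at 0 h, beside 3.47% of all regions. At 72 h the counts were 2 of 11 and 2 of 13, beside 6.99%. At 96 h they were 0 of 11 and 1 of 13, the Fras1 domain, beside 7.6%. On the CPM scale no measured region of either window was 2-fold lower than at 0 h at any later time, beside 0.699%, 3.67% and 6.21% of all regions at 48, 72 and 96 h. With the alternative scaling, 2 measured regions of Usp6nl and 1 of Fras1 were 2-fold lower at 96 h, beside 21.8% of all regions, and none was 2-fold higher, beside 0.912%. At 72 h it left 1 region of Fras1 higher and made 1 lower, beside 4.68% and 6.69%. A rise of 2-fold at 48 h with a fall of 2-fold from 48 to 96 h was seen in 2 regions of Usp6nl and 1 of Fras1, beside 0.956% of all regions. Just inside the 2-fold line lay a Usp6nl intron region at 1.0, and just outside it one at 0.85.

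**Figure D1:**
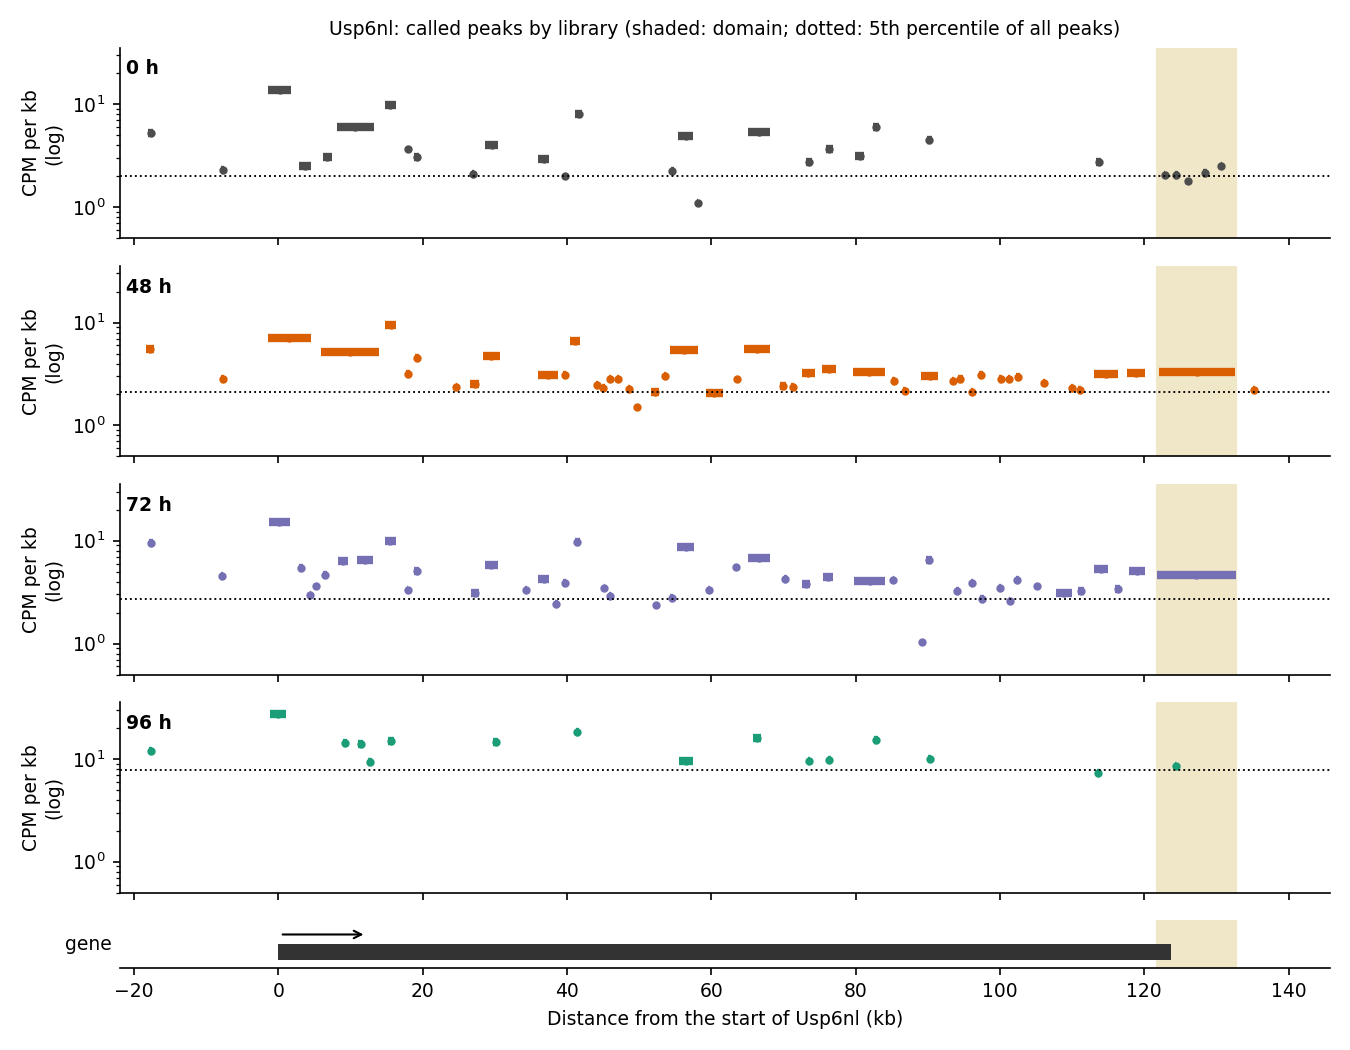
Called peaks in the Usp6nl window by library: each segment spans 1 peak, with its distance from the gene start in kb on the x axis and its density in CPM per kb on a log y axis; a dot marks its middle, peaks with no counts in nuclei are not drawn, the shaded band is the domain, and the dotted line is the 5th percentile of density over all peaks of at least 200 bp in that library. The domain is 5 short pieces at 0 h, 1 wide peak at 48 and 72 h and 1 piece of 141 bp at 96 h, when the dotted line stands at 7.82 CPM per kb.

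The density of signal on the called bases was set against that of all peaks of a library. In the Usp6nl domain it was 2.13, 3.33, 4.62 and 8.55 CPM per kb of called peak at 0, 48, 72 and 96 h, and in the Fras1 domain 2.13, 2.66, 3.80 and 6.84. The 5th percentile of density over all peaks of at least 200 bp was 2.01, 2.13, 2.72 and 7.82 CPM per kb in the same libraries, and the 1st percentile 1.79, 1.90, 2.28 and 6.57. The medians were 3.76, 3.40, 4.62 and 12.4. At 48 and 72 h the Usp6nl domain was thus near the median of its library and the Fras1 domain near the lower quartile, which was 2.61 and 3.55. All of these densities lay under the 1st percentile of the 96 h library, as did the medians of all peaks at 48 and 72 h.

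Bases outside a called peak add no counts, so the uncalled part of a domain is unknown rather than 0. If the uncalled bases had carried the 5th percentile density, the Usp6nl domain would have held 22.2 CPM at 0 h against 36.1 at 48 h, and the Fras1 domain 27.1 against 34.8. As 48 h bases were called above a floor that was nearly equal in both libraries, that order is fixed by the reckoning and nothing is read from it. At 96 h the same reckoning gave 85.8 CPM for Usp6nl and 104 for Fras1, above every called value. At its 48 h density the Usp6nl domain would have given 263 fragments in the 96 h library and the Fras1 domain 234, where 15 and 59 were counted in called pieces. A loss of the domains by 96 h and a domain not dense enough to be called in that library cannot be told apart here. The word transient fits the called peaks only.

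Other wide peaks were used to see how much of their length was called again in another library. Depth, time and mouse differ together between these libraries. Of 1955 autosomal peaks of at least 5 kb at 72 h, a median of 56.2% of the length was called again at 96 h, and 12.4% of the peaks kept less than 20% of their length. The called share at 96 h was 1.29% of the 72 h peak of the Usp6nl domain and 6.62% of that of the Fras1 domain. Shares under 5% were seen for 3.99% and under 2% for 3.22% of the wide 72 h peaks. The wide peaks were not matched to the domains on density, and the domains were picked by their values. Nothing is therefore read from the place of the domains among the wide peaks. Looking back from 48 h, 3930 wide autosomal peaks had a median of 96.1% of their length called at 0 h, and 1.60% had less than 20%. The longest 48 h peaks of the Usp6nl and Fras1 domains had 12.7% and 11.8%.

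**Figure D2:**
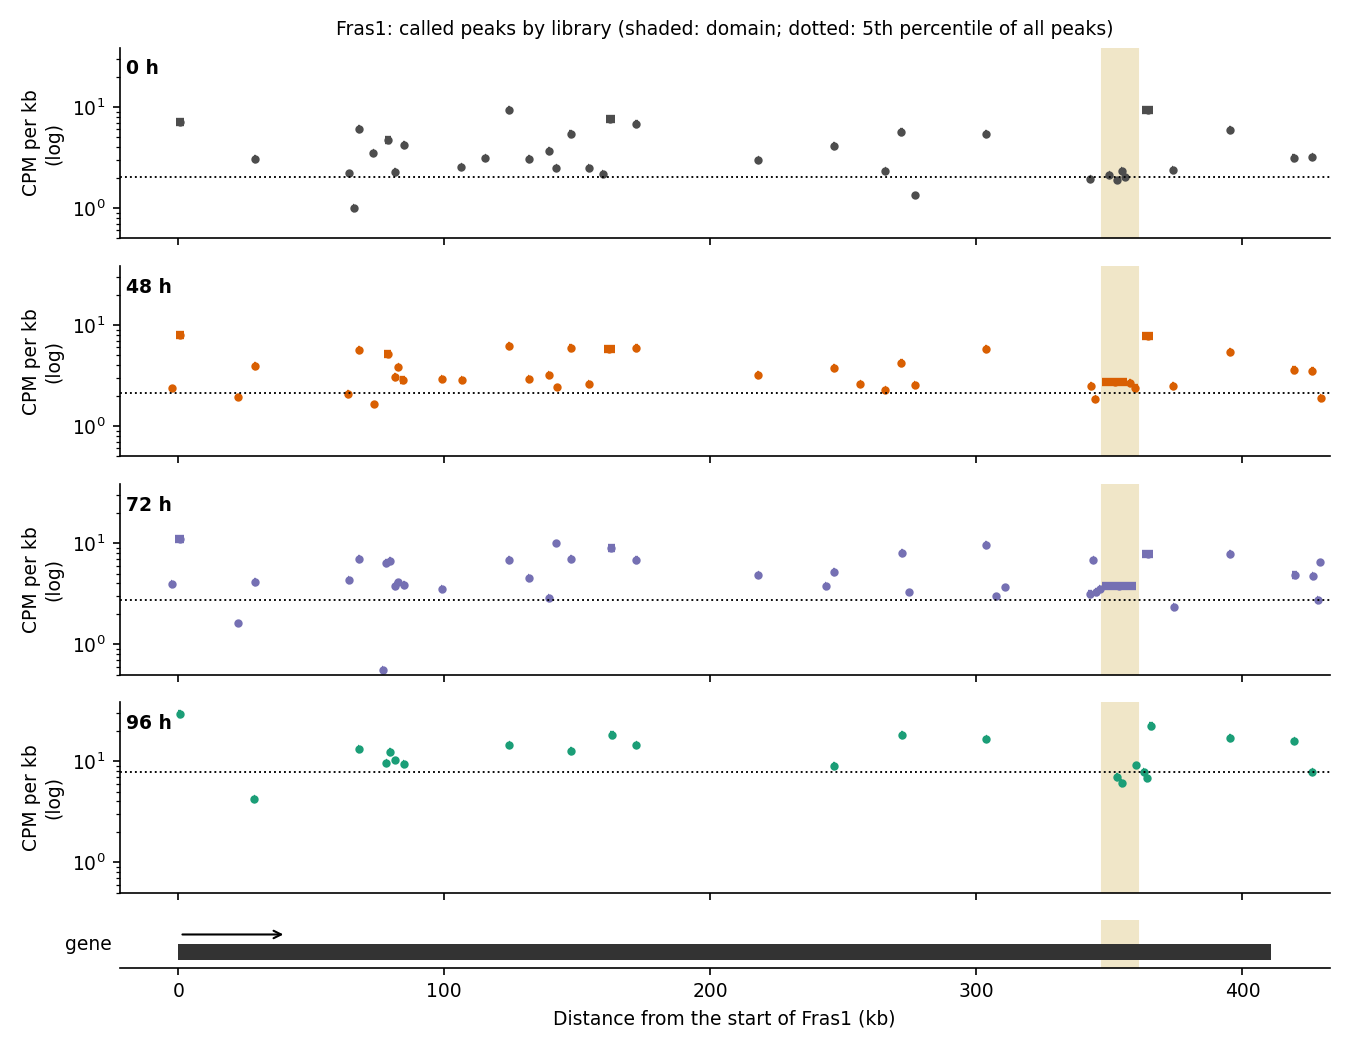
Called peaks in the Fras1 window by library, drawn as for Usp6nl: x axis, distance from the gene start in kb; y axis, density in CPM per kb on a log scale; shaded band, the domain; dotted line, the 5th percentile of density over all peaks of at least 200 bp of that library. The domain covers 11811 bp at 48 h and 12876 bp at 72 h, while the peaks near 362 kb and over the start are called in every library.

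The regions over the gene starts had other time courses, which at 96 h depended on the scaling. The first start of Usp6nl, inside a region of 5993 bp that also touches the lncRNA A230108P19Rik, carried 47.2 CPM (45.6–48.9) at 0 h, 42.0 (39.8–44.4) at 48 h, 47.2 (43.5–51.1) at 72 h and 60.2 (54.8–66) at 96 h. On the CPM scale it was lowest at 48 h and highest at 96 h. The log2 differences to 0 h were -0.17 (-0.26 to -0.07), -0.00 (-0.13 to 0.12) and 0.35 (0.20–0.49), and with the alternative scaling -0.12, -0.18 and -0.33, so the direction at 96 h turned. The region over the second Usp6nl start, 28.3 kb downstream, held 7.23, 10.9, 11.0 and 9.11 CPM, a log2 difference of 0.56 at 48 h.

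The region over the Fras1 start was higher than at 0 h at every later time. It held 19.1 CPM (18.1–20.2) at 0 h, 23.9 (22.2–25.6) at 48 h, 35.2 (31.9–38.6) at 72 h and 37.9 (33.7–42.5) at 96 h. The intervals of 0, 48 and 72 h did not overlap, while those of 72 and 96 h did. The log2 differences to 0 h were 0.31 (0.18–0.44), 0.86 (0.71–1.02) and 0.97 (0.79–1.15), which stayed just under 2-fold. With the alternative scaling they were 0.36, 0.68 and 0.30, and 96 h over 48 h went from 0.66 to -0.06, so a rise from 48 to 96 h did not hold under both. The peak over this start was shorter at 96 h than before, 1277 bp against 2716 to 3180 bp.

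**Figure D3:**
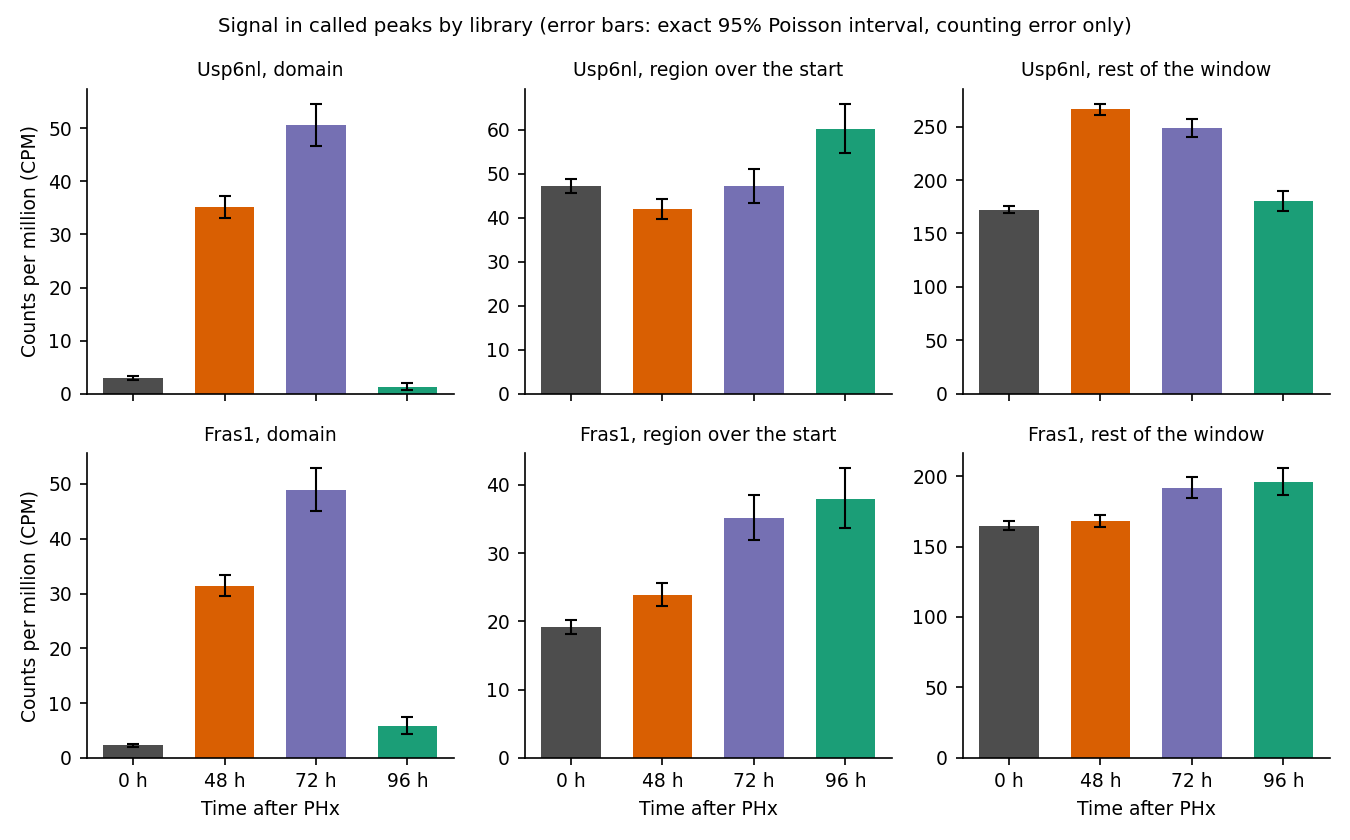
Signal in called peaks (CPM, linear y axes from 0) in the domain, the region over the gene start and the window without the domain, for Usp6nl (top) and Fras1 (bottom) in the libraries of 0, 48, 72 and 96 h; bars are single libraries and error bars exact 95% Poisson intervals. The domains are high at 48 and 72 h only, while the Fras1 start region goes from 19.1 CPM at 0 h to 37.9 at 96 h, a log2 difference of 0.97 that is 0.30 with the alternative scaling.

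Elsewhere in Usp6nl, gains of called signal at 48 h were spread along the gene. The window without the domain held 172 CPM (169–175), 266 (261–272), 249 (240.0–257) and 180.2 (171–190) at 0, 48, 72 and 96 h. Called peaks covered 29947, 61885, 41689 and 11735 bp of it. Per called kb the log2 difference of 48 h over 0 h was -0.42. The uncalled bases are unknown here too, so how much of the gain came from newly called bases was not tested. The next clearest region after the domain, chr2:6435668-6439302 (mm10), lies 113 kb from the start in an intron and over an exon of the lncRNA Gm13388, and held 1.81, 10.6, 12.3 and 2.61 CPM. It followed the time course of the domain, with log2 differences to 0 h of 2.26, 2.47 and 0.43, over peaks of 649, 3335, 2539 and 362 bp. An intronic region 75.3 kb from the start, chr2:6397974-6399993, held 3.36, 7.23, 6.15 and 3.95 CPM, just at the 2-fold line with a log2 difference of 1.0 at 48 h. Close by, 72.5 kb from the start, a region with a mean under 5 CPM had a log2 difference of 1.22 at 48 h.

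Regions that were not called in every library added to the Usp6nl window as well. There were 38, of which 7 had a peak at 0 h, 34 at 48 h, 25 at 72 h and 0 at 96 h. Their summed signal was 8.05, 54.7, 50.7 and 0 CPM over 2842, 20009, 13374 and 0 called bp, and uncalled bases are unknown rather than 0. No single region had more than 11.2 CPM. The one with that level lies 118 kb from the start over coding sequence, between the 113 kb region and the domain, and held 8.21 CPM at 48 h and 11.2 at 72 h, with no called peak at 0 and 96 h. Of the 52 Usp6nl regions, 14 were called at 48 and 72 h only, beside 7.75% of all regions of the series, and 13 at 48 h only, beside 17%. Of the 49 Fras1 regions these were 5 and 2. The 48 and 72 h libraries had the most peaks, 158652 and 164113 against 119839 at 0 h and 77580 at 96 h. Other Usp6nl elements, chosen after their values were seen, changed less. An intronic region 14.7 kb from the start held 15.3, 14.9, 14.5 and 14.2 CPM although its called length went from 1553 to 949 bp, and the one 64.6 kb from the start held 16.2, 19.8, 20.9 and 19.4 CPM. The second strongest region of the window, over a coding exon 5.84 kb from the start, held 34.8, 41.9, 25.3 and 24.2 CPM and so was lower at 72 and 96 h than at 0 h, with log2 differences of -0.45 and -0.51.

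Elsewhere in Fras1 the summed signal was nearly level at 48 h. The window without the domain held 165 CPM (162–168), 168 (164–173), 192 (185–200) and 196 (187–206), and the log2 difference of 48 h over 0 h was 0.03 (-0.02 to 0.07). The strongest Fras1 region, chr5:96736157-96740404, begins just past the end of the domain, spans coding sequence and touches the transcript Gm42604. It held 37.9, 32.8, 31.3 and 40.2 CPM, and 37.9, 33.9, 27.6 and 25 with the alternative scaling, so that its order at 96 h depended on the scaling. Among regions picked after their values were seen, the exonic one 160 kb from the start held 24.3, 22.0, 23.3 and 30.0 CPM, and the intronic one 172 kb from it 6.97, 6.21, 6.92 and 6.83 CPM. An intronic region 124 kb from the start went the other way, with 10.3, 5.95, 5.38 and 6.90 CPM and a log2 difference of -0.74 at 48 h. The 30 Fras1 regions that lacked a peak in at least 1 library summed to 11.7, 13.7, 21.6 and 0 CPM.

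Short regions over coding exons of Fras1, also picked with their values known, were higher at 96 h on the CPM scale, much of which is within the scaling shift given above. Those 271, 303 and 395 kb from the start held 6.56, 3.79 and 4.11 CPM at 0 h and 11.9, 8.04 and 8.30 at 96 h, with log2 differences of 0.81, 0.99 and 0.93. At 48 h the same regions held 5.40, 4.15 and 4.56 CPM. Within the 20 kb after the gene, the region over the start of Anxa3, the annexin gene next door, held 4.50, 5.42, 10.2 and 8.44 CPM and passed 2-fold at 72 h on the CPM scale, with a log2 difference of 1.1. Over its 13 measured regions Fras1 had a median log2 difference to 0 h of 0.12, 0.14 and 0.47 at 48, 72 and 96 h. Over the 11 of Usp6nl the medians were 0.56, 0.58 and 0.21, where the medians of all regions were those given above.

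Summed over the whole windows, Usp6nl held 175 CPM (172–178) at 0 h, 301 (295–307) at 48 h, 299 (290–309) at 72 h and 181 (172–191) at 96 h, over 30, 48, 48 and 16 peaks. These covered 19.1%, 44.2%, 32.2% and 7.25% of the window. Fras1 held 167 CPM (164–170), 199.5 (195–204), 241 (233–249) and 202 (192–212), over 36, 39, 41 and 24 peaks that covered 6.57%, 9.93%, 9.38% and 2.85%. The Usp6nl window was thus higher at 48 and 72 h than at 0 and 96 h, while the Fras1 window was highest at 72 h and about equal at 48 and 96 h on the CPM scale. The log2 differences of 48 h over 0 h were 0.78 (0.74–0.82) and 0.25 (0.21–0.30), and those of 96 h over 48 h -0.73 (-0.81 to -0.65) and 0.02 (-0.06 to 0.09). Scaled to regions of near-equal peak length, the values of 96 h over 48 h were -1.46 and -0.72, so that the Fras1 window too was lower at 96 h. Counted per kb of called peak, the differences of 48 h over 0 h were -0.43 and -0.34, an average to which the newly called bases belong. Within the domains the density per called kb was higher at 48 h, by 0.64 for Usp6nl and 0.32 for Fras1 on the log2 scale. Without the domain the Fras1 difference of 0.25 became 0.03.

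Shares of nuclei were compared at 1 depth. Nuclei were thinned to 1000 fragments each, which kept 3741, 3606, 3688 and 2555 of them. The Usp6nl domain was then open, with at least 1 fragment, in 0.561% (0.348%–0.857%), 2.97% (2.44%–3.57%), 4.45% (3.80%–5.16%) and 0.196% (0.0636%–0.456%) of nuclei at 0, 48, 72 and 96 h. The Fras1 domain was open in 0.214% (0.0924%–0.421%), 3.16% (2.61%–3.79%), 4.77% (4.11%–5.51%) and 0.431% (0.215%–0.769%). Without thinning, at depths that differ, the Usp6nl domain was open in 6.71%, 20.3%, 12.4% and 0.465% and the Fras1 domain in 5.15%, 19.1%, 12.5% and 1.74% of all nuclei.

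The signal was spread over many nuclei. At 48 h the 1101 fragments in the Usp6nl domain came from 792 nuclei with at most 6 in any of them, and the 10 nuclei with the most held 4.45%. The 1007 Fras1 fragments came from 744 nuclei with at most 5 in any, and the top 10 held 4.27%. At 72 h the corresponding shares were 5.41% and 5.11%. Nuclei with a fragment were deeper than the others, with a median of 21609 counts against 9659 for the Usp6nl domain at 48 h and 22068 against 9806 for the Fras1 domain.

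At the same depth the whole Usp6nl window was open in 16.7% (15.5%–17.9%), 25.7% (24.2%–27.1%), 25.3% (23.9%–26.7%) and 18.0% (16.5%–19.5%) of nuclei, and the Fras1 window in 16.7% (15.6%–18.0%), 18.9% (17.6%–20.2%), 21.4% (20.1%–22.8%) and 18.6% (17.1%–20.2%). The Usp6nl intervals of 48 and 72 h lay above those of 0 and 96 h, while the Fras1 intervals of 0, 48 and 96 h overlapped. As a rise at 48 h chose the genes, nothing is read from the order of 0 and 48 h. The start of Usp6nl was open in 4.60%, 3.91%, 4.45% and 5.91% and the start of Fras1 in 2.33%, 2.38%, 3.85% and 3.44%. Without thinning the window shares ran with depth, from 76.9% and 75.8% at 0 h down to 32.4% and 36.0% at 96 h, and the order of 0 and 48 h turned around.

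**Figure D4:**
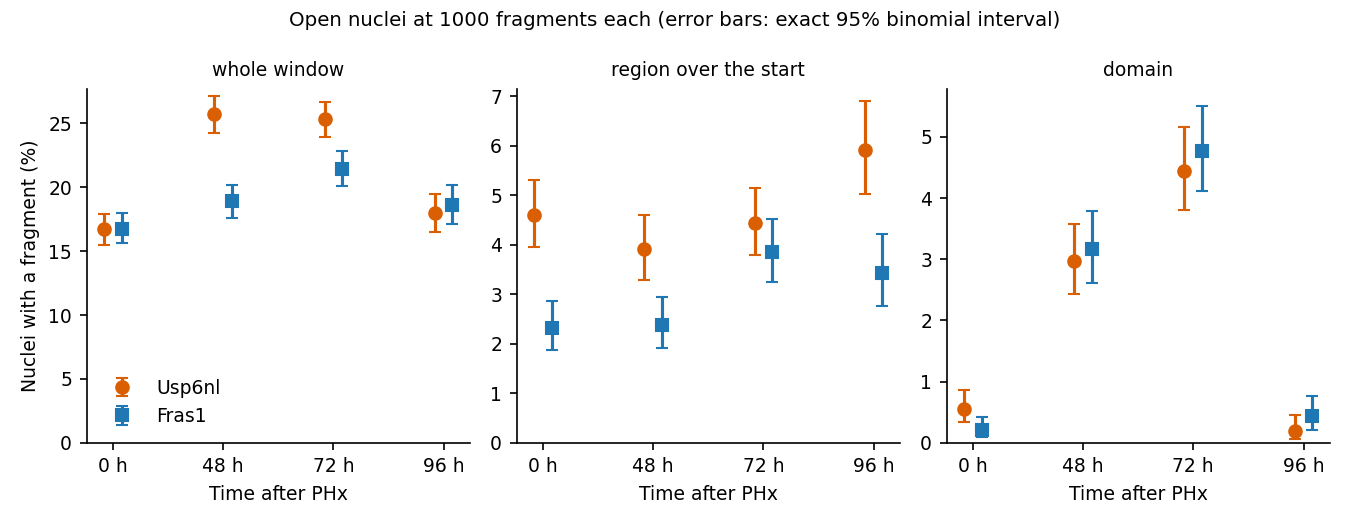
Share of nuclei with at least 1 fragment, in percent, after thinning every nucleus to 1000 fragments, for the whole window, the region over the start and the domain of Usp6nl (circles) and Fras1 (squares) by time after PHx; error bars are exact 95% binomial intervals and the y axes start at 0 with a scale each. Both domains stay under 5% of nuclei, at 4.45% and 4.77% at 72 h.

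The windows of Usp6nl and Fras1 were open in the same nuclei about as often as their separate shares give. At 48 h both were open in 182 of 3606 nuclei, where the product of the shares gives 174, a ratio of 1.04 (0.90–1.20). At 0, 72 and 96 h the ratios were 1.08 (0.894–1.3), 1.04 (0.910–1.19) and 1.1 (0.891–1.34). All 4 intervals included 1. Beside these, the ratio of Usp6nl with Egfr was 0.926, 1.02, 0.999 and 1.02 and that of Fras1 with Egfr 1.02, 1.03, 1.04 and 0.992. With each of 10 hepatocyte marker genes the ratios at 48 h ran from 0.930 to 1.06 for Usp6nl and from 0.965 to 1.13 for Fras1.

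For the domains alone, which are the stretches that rose together, the counts were small. Both were open in 6 nuclei at 48 h, where 3.38 were expected, a ratio of 1.77 (0.651–3.86), and in 12 nuclei at 72 h, where 7.83 were expected, a ratio of 1.53 (0.793–2.68). Both ratios lay above 1 with intervals that included it, so a link within nuclei was not detectable at this depth. At 0 and 96 h no nucleus had both, which allows shares of up to 0.0802% and 0.117% by a floor of 3 counts, with exact upper limits of 0.0986% and 0.144%. Within 1 gene, an open Usp6nl domain went with an open rest of the window at ratios of 0.922 (0.585–1.38) at 48 h and 1.01 (0.706–1.39) at 72 h. For Fras1 these were 0.764 (0.418–1.28) and 1.28 (0.918–1.74).

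**Figure D5:**
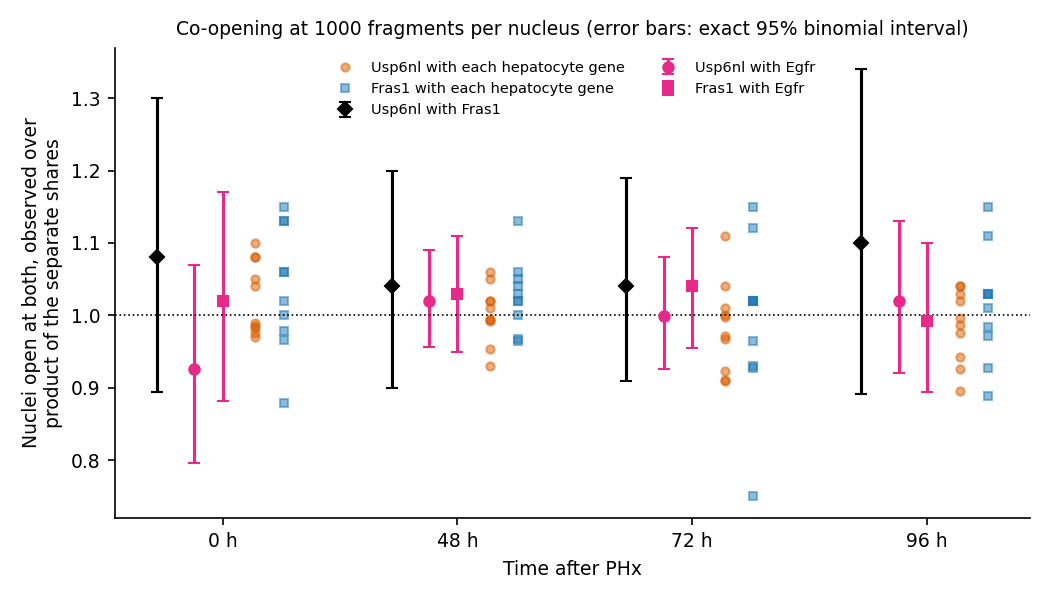
Nuclei open at both of a pair of genes, as observed over the product of the separate shares (y axis, ratio; the dotted line is 1), at 1000 fragments per nucleus and by time after PHx. Usp6nl with Fras1 (diamonds) and each with Egfr carry exact 95% binomial intervals of the joint share, over the product held fixed. The small points are single ratios with each of 10 hepatocyte marker genes. The ratios of Usp6nl with Fras1 lie between 1.04 and 1.1, with intervals that include 1.

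Nuclei with more non-hepatocyte than hepatocyte marker counts held few of the domain fragments. Without them the Usp6nl domain was at 2.81, 35.2, 50.8 and 1.21 CPM and the Fras1 domain at 2.31, 31.6, 49.3 and 5.72, as large as with them. Within those nuclei the Usp6nl domain was at 11.4 CPM (4.58–23.4, from 7 fragments) at 0 h and 36.3 (17.4–66.8, from 10) at 48 h. At 0 h this interval lay above the level in the other nuclei. The Fras1 domain had 1 fragment there at 48 h, which gave 4.03 CPM (0.102–22.5) against 31.6 (29.7–33.6) in the others. At 72 h it was at 33.1 CPM (16.5–59.2) there. The Fras1 window as a whole was lower in those nuclei in the first pair of libraries, at 59.0 CPM (40.3–83.3) against 168 (165–171) at 0 h and 64.5 (39.4–99.7) against 200.6 (196–206) at 48 h. At 72 h the intervals overlapped, with 199 (155–251) against 242 (234–251), and at 96 h as well, with 212.5 (97.2–403) against 202 (192–212). Many nuclei lay near this cut. The class rich in non-hepatocyte counts had 162, 128, 256 and 46 nuclei at 0, 48, 72 and 96 h. In the same order, 218, 183, 586 and 291 nuclei were within 2 counts of equal.

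Nuclei were also split by whether 10 pericentral or 10 periportal genes, the hepatocyte programmes near the central and the portal vein, carried more fragments. The Fras1 window at 0 h was open in 12.8% (10.5%–15.5%) of the 740 more pericentral and in 18.0% (16.5%–19.5%) of the 2461 more periportal nuclei. In the other libraries the intervals of these classes overlapped for Fras1, as they did at all 4 time points for Usp6nl. The Usp6nl domain at 48 h was open in 2.85% (1.92%–4.07%) and 3.13% (2.40%–4.01%), and the Fras1 domain in 2.46% (1.60%–3.60%) and 3.29% (2.54%–4.18%). Many nuclei lay near the line of this split, as 1545 of 3741 at 0 h and 1765 of 3606 at 48 h were within 1 fragment of equal. The periportal list also carried more signal than the pericentral one, 2676 against 1325 CPM at 0 h and 2053 against 1476 at 48 h. The split was not adjusted for this, and whether its classes follow the zones of the liver was not tested.

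The partners of both proteins were read as sums over the gene and 2 kb upstream of it. Of 14 genes of Rab5 and Egfr endocytosis around Usp6nl, Egfr alone was at least 2-fold higher than at 0 h at each later time, beside 5.72%, 10.6% and 5.6% of protein-coding genes. Egfr, the receptor whose uptake Usp6nl slows, held 374, 2179, 1252 and 1488 CPM, with log2 differences of 2.54, 1.74 and 1.99. On the CPM scale Grb2, the adaptor that links the receptor to Ras, was 2-fold lower at 96 h, beside 9.05% of genes. It held 96.9, 88.0, 70.3 and 44.4 CPM, with a log2 difference of -1.12. None was 2-fold lower at 48 or 72 h, beside 1.9% and 6.05%. Eps8 and Rab5a did not pass 2-fold and are given because they act directly with Usp6nl. Eps8, the partner that Usp6nl binds, held 42.7, 53.8, 84.6 and 68.3 CPM and stayed just under 2-fold at 72 h, with 0.98. Rab5a, the GTPase itself, held 64.7, 56.3, 53.0 and 67.0 CPM. The median of the 14 was -0.17, -0.15 and -0.24, beside -0.04, -0.01 and 0.08 over all genes. The alternative scaling lowers every value at 96 h by 0.68. It would take Rab5c, Rab43, Sos1 and Rin1, at -0.65, -0.65, -0.69 and -0.45 on the CPM scale, past 2-fold lower beside Grb2. Rabgef1, at -0.32, would be at the line, and Egfr would stay 2-fold higher. The share of all genes with that scaling was not computed.

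Of 8 Fraser complex genes around Fras1, 1, 4 and 3 were at least 2-fold higher than at 0 h at 48, 72 and 96 h, beside 5.72%, 10.6% and 5.6% of all genes, and none was 2-fold lower, beside 1.9%, 6.05% and 9.05%. Their median log2 difference was 0.46, 0.88 and 0.53, beside -0.04, -0.01 and 0.08 over all genes. Among markers of other cell types, the 4 measured stellate and mesenchymal genes had medians of 0.75, 1.17 and 0.77, the 4 measured Kupffer and myeloid genes 0.48, 0.52 and 0.49, the 3 measured biliary genes 0.10, 0.65 and 0.37, and the 7 measured endothelial genes 0.07, 0.16 and -0.41. The part of such cells in these values was not tested, and in summed libraries more cells of a type and more signal per cell cannot be told apart. Frem2, a partner of Fras1 in the matrix complex, held 2.73, 6.02, 11.7 and 3.08 CPM and was back near its first level at 96 h, with log2 differences of 1.01, 1.92 and 0.15. Frem1 held 5.87, 10.1, 14.2 and 18.6 CPM and Frem3 3.21, 5.21, 10.8 and 11.3, with differences at 96 h of 1.58 and 1.67. Npnt, nephronectin, a basement membrane ligand of the integrin Itga8, held 26.8, 52.3, 61.8 and 62.1 CPM, with 0.95, 1.19 and 1.20. Grip1, Itga8, Itgb1 and Vwa2 stayed under 2-fold throughout. With the alternative scaling the differences at 96 h were 0.92 for Frem1, 1.03 for Frem3, 0.52 for Npnt and -0.42 for Frem2, whose sign turned. The levels of Frem1, Frem3 and Npnt at 72 and 96 h had overlapping intervals.

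As sums over the gene, neither Usp6nl nor Fras1 was 2-fold changed, with log2 differences at 48 h of 0.80 and 0.24. By the same measure on the CPM scale, none of the 4 around Usp6nl (Proser2, Echdc3, Celf2 and Gata3) and none of the 4 around Fras1 (Cnot6l, Mrpl1, Anxa3 and Bmp2k) was 2-fold changed against 0 h, beside the shares of all genes given above. The median log2 difference at 48 h was 0.03 for the former and 0.01 for the latter. Gata3, a transcription factor gene of lymphoid and epithelial cells and the farthest of these, came closest with 45.4, 71.7, 90.9 and 82.8 CPM and log2 differences of 0.65, 0.99 and 0.86. Anxa3 was at -0.67 at 96 h, which the alternative scaling would take past 2-fold lower.

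Some other regions had a time course like that of the domains. Likeness was the Euclidean distance over the 3 log2 ratios to 0 h, taken over the regions with a peak in every library. The 5 most like the Usp6nl domain lay in Ubac2 (distance 0.595), 4134 bp from Zfp982, over Abhd12 and Pygb, in Jag2 and in Anxa5. The Ubac2 region, chr14:122020550-122028259, held 0.937, 14.1, 25.2 and 0 CPM over 499, 5280, 7710 and 5 bp. The 5 most like the Fras1 domain lay in Hoxc11 (distance 0.195), Mdga1, Emilin3 and Neto1 and 1303 bp from Zfp988. The Emilin3 region, chr2:160907203-160914537, over a gene for a matrix protein of the EMILIN family, held 1.03, 12.3, 26.9 and 2.88 CPM over 476, 4827, 7335 and 376 bp. Both of these regions, which were chosen for this time course, were called over a longer stretch at 48 and 72 h than at 0 and 96 h. Some of the others were shorter, with at most 3494 bp called in Hoxc11 at any time, and the limit of calling at 96 h holds for them as well.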

How the data were processed

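Single-nucleus ATAC-Seq was measured in 4 libraries of mouse hepatocytes, 1 per time point, so no p-value was computed. The authors deposited, for each library, counts of transposase cut sites per peak and barcode and the positions of the peaks, made with Cell Ranger ATAC 1.1.0 per the file headers. The genome build was mm10 per the submitters' processing notes. Peaks were called in each library on its own, so a base outside a peak adds no count. Genes came from GENCODE vM21.

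Barcodes with at least 1000 counts were kept as nuclei, and no doublet caller was run. Most counts were even (87.3% to 88.6%), and fragments were taken as counts over 2, rounded up. CPM was computed from counts in nuclei, log2 ratios with a pseudocount of 0.5 CPM, and intervals from fragments at the 95% level. Nuclei were thinned to 1000 fragments with 1 seeded draw. Regions over the gene start, the domain, regions 2-fold changed at 48 h, listed genes 2-fold changed and the 5 most alike regions were named by rule, and others are said to be chosen after their values were seen. The members, gene lists and marker lists were chosen with earlier results of these data known. Alternatives were other scalings, count minimums, pseudocounts, peak filters and thinning depths. The calculations were tested on simulated data. Python 3.11.15, NumPy 2.4.6, SciPy 1.17.1, pandas 2.3.3, pysam 0.24.0 and matplotlib 3.10.9 were used.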

Additional observations from a re-analysis of the deposited data

Results flagged for a closer look

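Barcodes with fewer than 1000 counts entered no comparison, and the Fras1 domain carried signal in them. At 48 h it was at 21.7 CPM (7.97–47.3), from 6 fragments in 1081 such barcodes. At 72 h it was at 30.7 CPM (16.3–52.4), from 13 fragments in 1444. At 0 h there were 0 fragments in 668 barcodes, where 3 counts would be 8.19 CPM and the exact upper limit is 20.1 CPM, which overlaps the interval of 48 h. At 96 h it was at 8.01 CPM (2.6–18.7). The values of 48 and 72 h were singled out because they lay above the exact upper limit of 0 h, and the difference was not tested. The Usp6nl domain in the same barcodes was at 10.9 CPM (1.32–39.4), 14.5 (3.95–37.1), 28.2 (14.6–49.3) and 0 (up to 8.44) at 0, 48, 72 and 96 h, with overlapping intervals at 0, 48 and 72 h.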

How the results depend on the processing

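The window values depended on how called bases and depth were treated. For Usp6nl the log2 difference of 48 h over 0 h was 0.78 as reported. It was 0.86 when scaled to autosomal regions with a peak in every library, 0.83 when scaled to regions of near-equal peak length and 0.63 without the domain, an alternative chosen after seeing the data. Per kb of peak it turned to -0.43. For Usp6nl at 96 h over 48 h, -0.73 as reported, these settings gave -0.91, -1.46, -0.56 and, per kb, 1.88. Keeping only peaks at or above the median count gave -0.84 and scaling by the median log2 ratio -0.93. For Fras1 the 48 h over 0 h value of 0.25 became 0.33, 0.30, 0.03 without the domain and -0.34 per kb, and 0.36 in peaks at or above the median count. For Fras1 at 96 h over 48 h, 0.02 as reported, the shared and the near-equal regions gave -0.17 and -0.72, the median count and the median log2 ratio -0.18 each, the window without the domain 0.22 and the value per kb 1.82.

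The shares of open nuclei at 48 h over 0 h had log2 ratios of 0.62 for Usp6nl and 0.17 for Fras1, which turned to -0.06 and -0.24 with no thinning, where the deeper library has more open nuclei by construction. At 96 h over 48 h the Usp6nl ratio of -0.51 became -0.79 at 500 fragments, -0.72 with counts thinned to 2000, -1.03 with no thinning and -0.71 without nuclei rich in non-hepatocyte markers. The Fras1 ratio of -0.02 became 0.16 at 2000 fragments and -0.69 with no thinning. The cause of the other shifts was not tested. The ratio of co-opening at 48 h, 1.04, stayed within 0.98 to 1.09 under the alternatives run. In all, 58 alternative values moved by less than counting error, 24 moved by more and 5 turned a value that was clear of 0 by its counting error. The Fras1 values of 96 h over 48 h, 0.02 and -0.02, were not clear of 0 and took either sign.

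No paired analysis was possible because each time point is 1 library. An alternative with peaks of near-equal length only was not run, as neither window holds such a region. The densities called at 96 h limit what can be seen there, and whether depth sets them was not tested. The domains' densities of 48 and 72 h lie under the 1st percentile of density called at 96 h. So do the median densities of all peaks in the 48 and 72 h libraries.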
